A study of Mus musculus with 6 samples.

Results

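The interferon-inducible GTPases followed here are 10 mouse genes taken by name: the guanylate-binding protein genes *Gbp2*, *Gbp3*, *Gbp5*, *Gbp7* and *Gbp9*, and the immunity-related GTPase (IRG) genes *Irgm1*, *Irgm2*, *Igtp*, *Iigp1* and *Ifi47*. All 10 were among the 29097 genes counted in peripheral blood (PB) neutrophils, and 8 of them reached the mean level at which a gene was tested, together with 10440 genes in all. *Gbp5* and *Iigp1* stayed under that level, which was an average FPKM of 1 over the 6 libraries. FPKM scales the fragments of a gene to its length and to the library's total, so that levels of different genes can be set beside each other.

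The GTPases of both families are made on demand. Interferon-gamma and type I interferons (IFN-I) act through JAK kinases and the transcription factors these activate, and Irf1 made in turn keeps the genes on. Guanylate-binding proteins are large GTPases that assemble on bacteria and on vacuoles that hold parasites, and several of them promote inflammasome activity. The IRG proteins are smaller: effector members such as Iigp1 load onto vacuoles, whereas the regulators Irgm1, Irgm2 and Igtp (also called Irgm3) sit on the cell's own membranes and hold the effectors inactive there.

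The study asked how ligature-induced periodontitis (LIP) changes blood neutrophils. Both groups were male C57BL/6 mice of 8 weeks. LIP mice carried silk ligatures around the second molars for 14 d, and Ctrl mice had no ligature over the same time, with no other agent or allele named for either group. CD45+CD11b+Ly6G+ cells were sorted and made into 3 Smart-seq2 libraries per group, each from the pooled cells of 5 mice, so that an SD below is a spread between pools and not between mice.

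The 6 libraries held 52186555 to 57262379 counted reads, and Smart-seq2 counts reads, not molecules. Transcripts of other blood cells were present beside those of neutrophils, and they moved with the groups. The summed FPKM of 21 neutrophil markers was 17636 to 21369 in Ctrl and 57708 to 62812 in LIP. That of 12 B cell markers was 10721 to 11665 in Ctrl and 1788 to 1803 in LIP, that of 13 T cell markers 278 to 297 and 46.8 to 60.4, and that of 9 erythroid markers 180633 to 186837 and 19478 to 20186. On the main scale (TMM, below), all 21 neutrophil and all 7 platelet markers were higher in LIP, with medians of 1.88 and 1.23 on the log2 scale, as were 8 of 9 monocyte, 3 of 8 NK cell and 1 of 2 dendritic cell markers. With libraries scaled on the neutrophil markers, 5 platelet, 6 monocyte, 8 NK cell and 1 dendritic cell markers were lower. All 12 B cell, 13 T cell and 7 erythroid markers tested were lower on every scale, with medians of -2.45, -2.46 and -3.01 on the main one. Beside these counts, 26.5% of all genes tested were higher and 27.2% lower on the main scale. With neutrophil scaling 88.8% of all genes tested were lower. No marker found in the table was at 0 in all 6 libraries. In such bulk libraries fewer cells of a type and less RNA per cell cannot be told apart, and the part of the other blood cells in the values below was not tested.

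The G1 motif of the GTP-binding site divides the genes into classes, and its coding sequence is shown because it sets the IRG regulators apart from the other members. Each run below is 24 bases of the longest reading frame in the GENCODE M21 transcripts (GRCm38), 5′ to 3′, with the codon of the key residue in capitals.
Gbp2: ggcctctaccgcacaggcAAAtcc
Gbp7: ggactataccgtacgggaAAAtcc
Gbp3: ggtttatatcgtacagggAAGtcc
Gbp9: ggattgtaccgtacagggAAGtcc
Gbp5: ggtctttatcgcacaggcAAAtcc
Irgm1: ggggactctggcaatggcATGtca
Irgm2: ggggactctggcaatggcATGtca
Igtp: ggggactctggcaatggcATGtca
Ifi47: gggcagtctgggactggcAAGtcc
The capital codon reads lysine in the guanylate-binding proteins and in *Ifi47*, an effector IRG, and methionine in the regulators *Irgm1*, *Irgm2* and *Igtp*, whose 24 bases are identical. The reading frames of the guanylate-binding proteins held 589 (*Gbp2*) to 638 codons (*Gbp7*), and those of the IRG genes 407 (*Irgm2*) to 423 (*Igtp*). A cysteine codon 4 codons before the stop, the place of a prenylation signal, was found in *Gbp2*, *Gbp5* and *Iigp1*. The match allowed any codons after the cysteine, so it does not by itself show that a protein is prenylated.

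The genes lie in clusters. *Gbp5*, *Gbp7*, *Gbp3* and *Gbp2* follow each other on the plus strand of chromosome 3, from chr3:142493978-142522344 (*Gbp5*, ENSMUSG00000105504) through chr3:142530342-142550149 (*Gbp7*, ENSMUSG00000040253) and chr3:142560026-142573209 (*Gbp3*, ENSMUSG00000028268) to chr3:142620602-142638008 (*Gbp2*, ENSMUSG00000028270). *Gbp9* (ENSMUSG00000029298) stands apart at chr5:105077630-105110277 on the minus strand. Chromosome 11 holds *Irgm1* (ENSMUSG00000046879, chr11:48861968-48871683, minus strand), *Ifi47* (ENSMUSG00000078920, chr11:49076587-49096974, plus strand), *Igtp* (ENSMUSG00000078853, chr11:58199556-58207591, plus strand) and *Irgm2* (ENSMUSG00000069874, chr11:58199618-58222782, plus strand).
*Igtp* and *Irgm2* overlap on the same strand, and 11.8% of the 50-base stretches of *Igtp* transcripts also occur in *Irgm2* transcripts. Of the stretches of *Gbp7*, 12.7% occur in another gene, 10.5% in *Gm43802*. That gene lies inside *Gbp7* on the same strand and had a mean of 0.00518 FPKM. For *Gbp9* the share was 8.05%. It was 3.75% for *Gbp3*, 2.54% for *Ifi47*, 2.03% for *Gbp2*, 1.69% for *Iigp1*, 1.44% for *Gbp5* and 0.310% for *Irgm1*. Reads from these stretches could have been divided between genes.

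Promoter windows are shown because most of the members hold an interferon-type motif there. RefSeq promoters (GRCm38.p6, 250 bases before to 50 bases after a start site) were matched for 8 of the 10 genes, all but *Gbp9* and *Iigp1*. GAAA-NN-GAAA (a pair of GAAA with any 2 bases between), the core of the interferon-stimulated response element that Irf proteins bind, was searched on both strands, and so was TTCNNNGAA, the gamma-activated site, which reads the same on both strands. The capitals mark the matches that lie within the windows printed, on the gene's own strand, and TTTC-NN-TTTC is the first motif read on the other strand.
Gbp2: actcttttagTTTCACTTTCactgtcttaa
Gbp7: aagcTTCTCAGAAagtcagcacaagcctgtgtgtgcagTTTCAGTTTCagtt
Gbp3: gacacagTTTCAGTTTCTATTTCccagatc
Gbp5: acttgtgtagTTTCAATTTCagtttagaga
Irgm1: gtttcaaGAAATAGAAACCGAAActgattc
Irgm2: ccatTTCCAGGAActGAAACTGAAAgctg
Igtp: ccatTTCTAGGAActGAAACTGAAAgctg
These windows lie at chr3:142620594-142620623, chr3:142530245-142530296, chr3:142559992-142560021 and chr3:142496759-142496788 on the plus strand for *Gbp2*, *Gbp7*, *Gbp3* and *Gbp5*. They lie at chr11:48871428-48871457 on the minus strand for *Irgm1*, and at chr11:58214898-58214926 and chr11:58199507-58199535 on the plus strand for *Irgm2* and *Igtp*. In *Gbp3* and in *Irgm1* a pair of GAAA-NN-GAAA matches overlaps within the capitals. GAAA-NN-GAAA was found in 7 of the 8 genes with a promoter and in 3.44% of 32851 promoters, or 3.65% of the promoters of tested genes. TTCNNNGAA was found in 4 of the 8, *Gbp5*, *Gbp7*, *Irgm2* and *Igtp*, and in 8.30% of all promoters. Both of its matches in *Gbp5* (starting at -245 and -52 from the start site) and 1 of those in *Gbp7* (at -106) lie outside the windows printed. Both motifs stood in the same 4 genes and in 0.454% of all promoters. The members were counted by gene and these shares by promoter, with 32851 promoters for 27025 genes, so the units are unlike. The *Ifi47* promoter window held neither string of letters, which says nothing of whether a factor binds there.

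In the Ctrl libraries the most abundant of the 10 transcripts were those of an IRG regulator and an IRG effector. *Igtp* stood first with a level of 44.6 ± 3.54 FPKM (SD, n = 3), *Ifi47* next with 31.7 ± 6.10, and then *Gbp2* with 16.7 ± 3.45, with no overlap between these neighbours. *Irgm1*, *Gbp7*, *Gbp9*, *Gbp3* and *Irgm2* followed with means from 7.49 down to 4.39 FPKM, and each of these overlapped the next. *Gbp5* and *Iigp1* came last, with 0.535 ± 0.291 and 0.110 ± 0.113 FPKM.
In the LIP libraries *Gbp2* had moved up beside *Igtp*. The levels were 48.6 ± 5.28 FPKM for *Igtp* and 42.2 ± 2.77 for *Gbp2*, which overlapped, and 22.7 ± 2.03 for *Ifi47*, which now lay apart below both. *Gbp7*, *Irgm1* and *Irgm2* came next at 12.96 ± 2.08, 11.2 ± 1.95 and 8.51 ± 0.521 FPKM, neighbours overlapping, and all 3 now lay above *Gbp9* at 6.40 ± 0.330 and *Gbp3* at 5.39 ± 2.78.

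**Figure D1:**
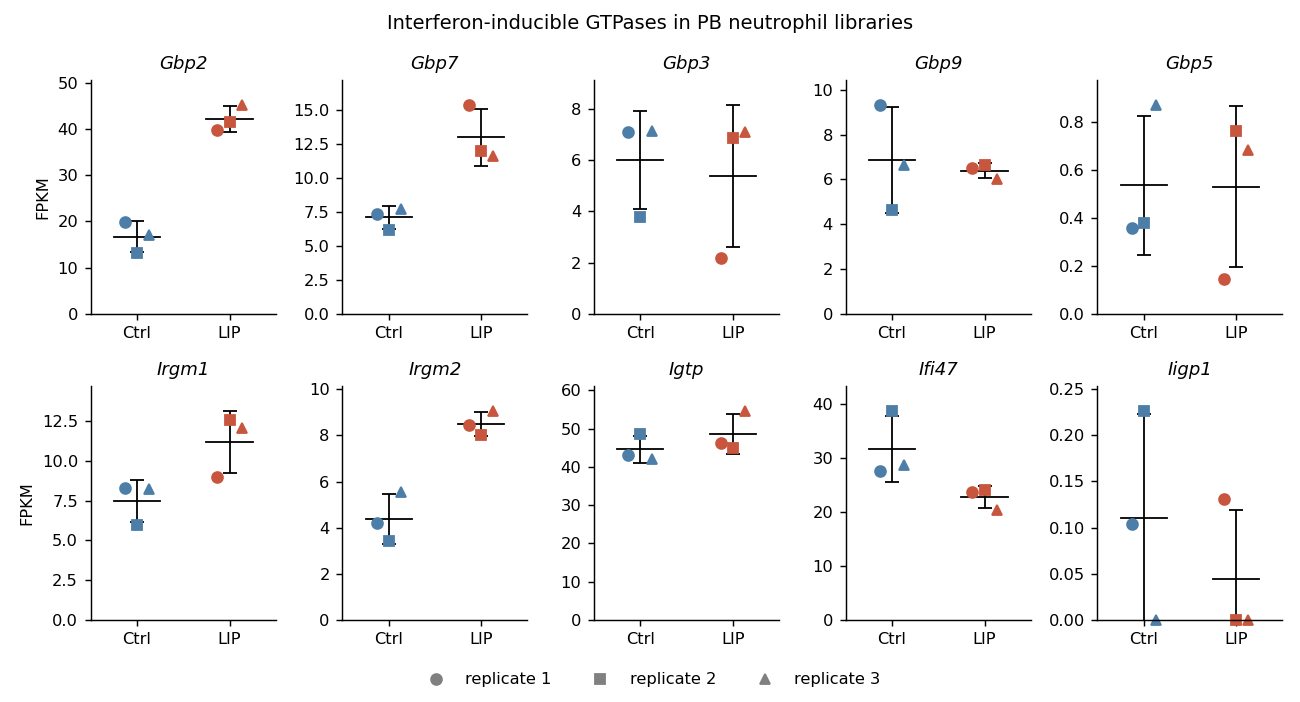
Level of each of the 10 GTPase genes in FPKM (vertical axes, each from 0) in the 3 Ctrl and 3 LIP libraries, with marker shapes for the replicate number, lines for the mean and bars for the SD. The LIP points of *Gbp2*, *Gbp7*, *Irgm1* and *Irgm2* all lie above the Ctrl points, those of *Ifi47* all lie below, and those of the other genes overlap.

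The comparison of LIP with Ctrl split the family. In edgeR's quasi-likelihood test with TMM scaling, which sets libraries to a common scale on the bulk of their genes, 5 of the 8 genes passed an adjusted p of 0.05 upward in LIP, *Gbp2*, *Irgm2*, *Gbp7*, *Irgm1* and *Igtp*, and 0 passed downward. Of all genes tested, 26.5% were higher and 27.2% lower. The median log2 fold change of the 8 genes was 0.66, beside -0.09 for all genes tested. When library totals replaced TMM, 4 were higher and 1 lower, beside 18.2% and 40.0% of all genes, with medians of 0.33 for the 8 genes and -0.42 for all. When libraries were set to the same total of neutrophil marker reads, 0 were higher and 7 lower, beside 0.441% and 88.8% of all genes, with medians of -1.20 and -1.95. Directions below are therefore on the TMM scale, and under the neutrophil scale every one of the 8 log2 fold changes was below 0. The neutrophil scale takes the summed marker reads as equal per neutrophil, which was not tested. On it 6 of the 21 markers were themselves higher and 6 lower. A log2 fold change on this scale is thus relative to that sum and is not a value per cell. In FPKM, 4 of the 8 members had every LIP library above every Ctrl library, beside 21.6% of all genes, and 1 had every LIP library below, beside 44.4%. With B cell, T cell, erythroid and haemoglobin genes left out before TMM, an alternative added after seeing the data, 5 members were again higher and 0 lower. Of all genes in that fit, 2756 were higher and 2814 lower. Each count of 0 on the TMM scale, here and for the gene lists below, was also 0 at an unadjusted p under 0.05 in edgeR and in DESeq2 (adjusted p under 0.05).

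*Gbp2*, a prenylated guanylate-binding protein that gathers on vacuoles of intracellular microbes, changed most. Its level was 19.96, 13.1 and 17.1 FPKM in Ctrl 1, 2 and 3, and 39.9, 41.5 and 45.3 FPKM in LIP 1, 2 and 3. The lowest LIP library lay far above the highest Ctrl library, and the LIP libraries lay close together. The gene rose 3.13-fold, a log2 fold change of 1.65 (SE 0.156, edgeR adjusted p = 1.08e-05). With library totals the log2 fold change was 1.32 (adjusted p = 9.67e-05), and on the neutrophil scale it was -0.22 and did not pass (adjusted p = 0.307).

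*Gbp7*, a guanylate-binding protein tied to the delivery of antimicrobial cargo, was at 7.33, 6.16 and 7.72 FPKM in Ctrl and 15.4, 11.9 and 11.6 FPKM in LIP. The groups did not overlap, and LIP 1 stood above the other LIP libraries. It rose 2.27-fold, a log2 fold change of 1.18 (SE 0.156, edgeR adjusted p = 0.000112), and by 0.85 with library totals (adjusted p = 0.00117). On the neutrophil scale it was lower, at -0.67 (adjusted p = 0.00621).

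*Gbp3* and *Gbp9*, which share this family's lysine motif, did not pass on the TMM scale or with library totals. *Gbp3* was at 7.10, 3.80 and 7.16 FPKM in Ctrl and 2.18, 6.86 and 7.12 FPKM in LIP. Ctrl 2 and LIP 1 were low and the other 4 libraries lay together, so the groups overlapped throughout. Its log2 fold change of 0.15 (SE 0.405, edgeR adjusted p = 0.773) became -0.18 with library totals (adjusted p = 0.726), and on the neutrophil scale it was lower, at -1.73 (adjusted p = 0.00527). *Gbp9* was at 9.34, 4.65 and 6.64 FPKM in Ctrl and 6.53, 6.64 and 6.02 FPKM in LIP. The LIP libraries lay inside the Ctrl range, with log2 fold changes of 0.21 (SE 0.224, edgeR adjusted p = 0.450) and, with library totals, -0.12 (adjusted p = 0.661). On the neutrophil scale it was lower, at -1.67 (adjusted p = 0.000298).

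*Gbp5*, a prenylated guanylate-binding protein known to promote Nlrp3 inflammasome assembly, was below the level for testing. In Ctrl 138, 149 and 329 reads were counted on it, and in LIP 59, 310 and 257. High and low libraries occurred in both groups, and without a filter on low genes its log2 fold change was 0.32 (SE 0.667, edgeR adjusted p = 0.778).

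All 3 methionine-motif regulators were called higher on the TMM scale, beside 26.5% of all genes tested. Their log2 fold changes ran from 0.43 to 1.26, and differences between these were not tested. The lowest, that of *Igtp*, did not pass with library totals (0.10, edgeR adjusted p = 0.501). *Irgm2* was at 4.20, 3.41 and 5.56 FPKM in Ctrl and 8.43, 8.03 and 9.06 FPKM in LIP. The LIP libraries lay together above the whole Ctrl range. The gene rose 2.40-fold, a log2 fold change of 1.26 (SE 0.212, edgeR adjusted p = 0.000596), and by 0.93 with library totals (adjusted p = 0.00428), but was lower on the neutrophil scale at -0.59 (adjusted p = 0.0381).

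*Irgm1*, the regulator best known for its part in autophagy and in control of mycobacteria, was at 8.28, 5.95 and 8.24 FPKM in Ctrl and 8.98, 12.6 and 12.1 FPKM in LIP. LIP 1 lay only just above the upper Ctrl libraries, and the other LIP libraries lay well above. It rose 1.85-fold, a log2 fold change of 0.89 (SE 0.175, edgeR adjusted p = 0.00164), and by 0.56 with library totals (adjusted p = 0.0225). On the neutrophil scale it was lower, at -0.98 (adjusted p = 0.00141).

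*Igtp* was the member at the call threshold. Its level was 43.0, 48.7 and 42.1 FPKM in Ctrl and 46.3, 44.9 and 54.6 FPKM in LIP. Only LIP 3 lay above all Ctrl libraries, and the groups overlapped. Its log2 fold change was 0.43 (SE 0.127, edgeR adjusted p = 0.0160), 0.10 with library totals (adjusted p = 0.501) and -1.42 on the neutrophil scale (adjusted p = 1.15e-05). Over 18 alternative fits its adjusted p ran from 1.15e-05 to 0.501, and it was higher in 11 of them and lower in 1. Without Ctrl 3 its adjusted p was 0.0652 and without LIP 3 it was 0.0777.

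Of the effector IRG genes among the members, *Ifi47* was not called higher, and *Iigp1* was below the level for testing and could not be called. *Ifi47* was at 27.6, 38.7 and 28.7 FPKM in Ctrl and 23.6, 24.1 and 20.4 FPKM in LIP. Every LIP library lay below every Ctrl library in FPKM, with Ctrl 2 highest. On the TMM scale its log2 fold change was -0.18 and did not pass (SE 0.161, edgeR adjusted p = 0.375), whereas with library totals it fell by 0.50 on the log2 scale (adjusted p = 0.0186). With neutrophil scaling it was lower, at -2.02 (edgeR adjusted p = 2.26e-06). Without Ctrl 2 the TMM value was 0.026 (adjusted p = 0.879), and over the 18 alternatives the adjusted p ran from 2.26e-06 to 0.879. *Iigp1* (ENSMUSG00000054072, chr18:60376027-60392634, plus strand), which loads onto parasite vacuoles, was barely counted, with 35, 78 and 0 reads in Ctrl and 47, 0 and 0 in LIP. With 3 of the 6 libraries at 0, no fold is given.

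**Figure D2:**
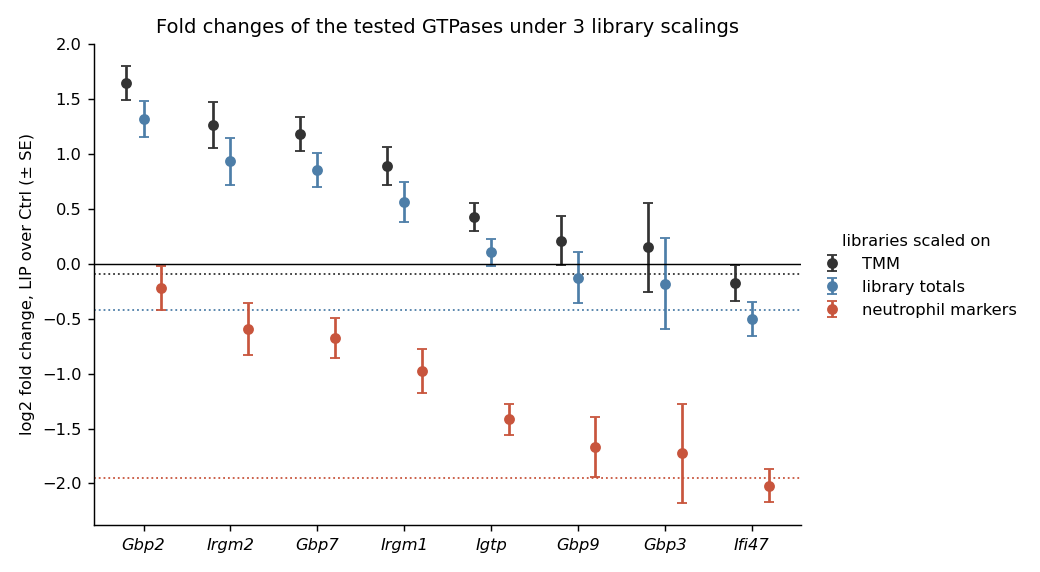
Log2 fold change of LIP over Ctrl with its SE (vertical axis) for the 8 GTPase genes tested, under TMM, library totals and scaling on neutrophil markers (colours), with dotted lines at the median of all genes under each scale. The order of the genes is the same under all 3 scales, from *Gbp2* (1.65, 1.32 and -0.22) down to *Ifi47* (-0.18, -0.50 and -2.02), while the whole set shifts with the median gene (-0.09, -0.42 and -1.95).

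Ratios between genes within a library do not depend on the scale of that library. *Gbp2* was at 0.339 to 0.723 of the *Ifi47* level in the Ctrl libraries and at 1.69 to 2.22 in the LIP libraries, so their order was turned round in every LIP library. The ratio of *Gbp2* to *Igtp* went from 0.269 to 0.464 in Ctrl to 0.829 to 0.925 in LIP, and that of *Gbp2* to *Gbp9* from 2.14 to 2.82 up to 6.12 to 7.52. Against its cluster neighbour *Gbp3*, *Gbp2* stood at 2.39 to 3.45 in Ctrl and 6.05 to 18.3 in LIP, the highest value in LIP 1, where *Gbp3* was low. *Irgm2* made up 0.0700 to 0.132 of *Igtp* in Ctrl and 0.166 to 0.182 in LIP. The pair overlaps in the genome, so reads from shared stretches could have been divided between them. The printed promoter windows of the pair have nearly the same letters, and the part of promoters in this ratio was not tested. None of these 5 pairs of ranges overlapped, and with 3 libraries against 3 an exact permutation test cannot go below p = 0.1. The pairs were picked by name, and most hold *Gbp2*, the member with the largest rise on the TMM scale. How many of all gene pairs separate in this way was not counted. The ratio of *Irgm1* to *Igtp* did overlap, at 0.122 to 0.196 and 0.194 to 0.280. The ranges of *Gbp7* to *Gbp3*, 1.03 to 1.62 and 1.63 to 7.04, all but touched.

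The make-up of the family's transcripts changed accordingly. The summed level of the 10 genes was 127, 125 and 124 FPKM in Ctrl and 152, 157 and 167 FPKM in LIP, with no overlap. This holds for FPKM, which is scaled to library totals. On the neutrophil scale all 8 tested members were below 0, with a median of -1.20. How often the sums or shares of other gene sets separate in this way was not counted. *Gbp2* went from 13.3% ± 2.63 to 26.6% ± 0.459 of that sum (SD, n = 3 each), and *Ifi47* from 25.2% ± 4.98 to 14.4% ± 1.88. The share of *Igtp* was 35.6% ± 2.92 and 30.6% ± 2.11, the largest in both groups, with every LIP library below every Ctrl library. *Gbp7* went from 5.63% ± 0.654 to 8.22% ± 1.69 and *Irgm2* from 3.50% ± 0.894 to 5.37% ± 0.237, also without overlap between the libraries. The shares of *Irgm1* (5.97% ± 1.05 and 7.05% ± 1.04), *Gbp9* (5.47% ± 1.81 and 4.05% ± 0.381) and *Gbp3* (4.79% ± 1.52 and 3.36% ± 1.66) overlapped between the groups.

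**Figure D3:**
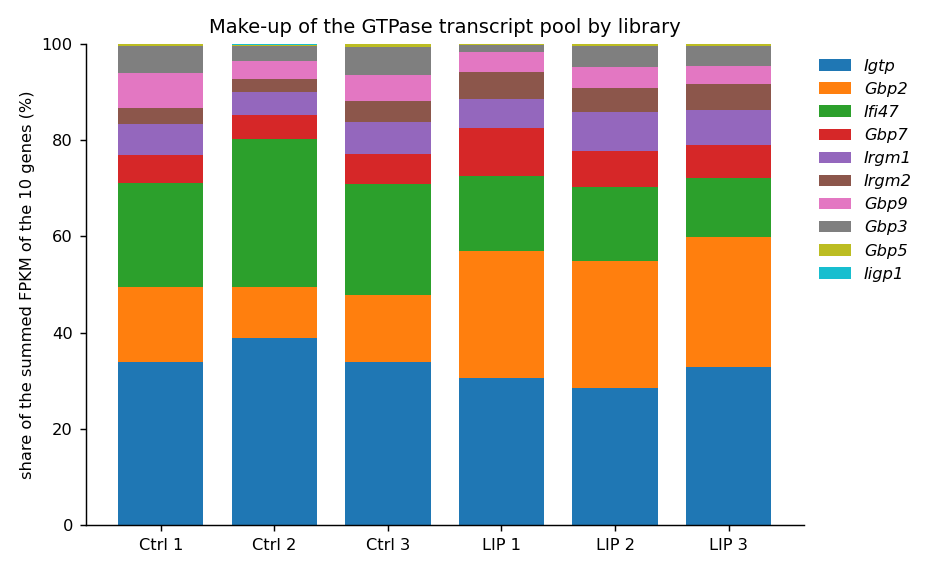
Share of each gene in the summed FPKM of the 10 GTPase genes (vertical axis, percent) for each library (horizontal axis). The *Gbp2* band covers 10.5% to 15.7% in the Ctrl libraries and 26.3% to 27.2% in the LIP libraries, and the *Ifi47* band 21.7% to 30.9% and 12.2% to 15.6%.

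Within the groups the members did not all vary together. In Ctrl 2, *Gbp2*, *Gbp3*, *Gbp7*, *Gbp9*, *Irgm1* and *Irgm2* were at their lowest Ctrl level in FPKM, and *Igtp* and *Ifi47* at their highest. The deviations of Ctrl 2 from the other Ctrl libraries fell with gene length (Spearman's rho = -0.393 across 10261 genes, which are not independent), and those of Ctrl 1 rose with it (0.333), whereas in the LIP libraries rho lay between -0.0641 and 0.0601. The part of gene length in the members' values was not tested. Without Ctrl 2, 5 members were higher and 0 lower, as with it, beside 2603 and 2385 of all genes tested. The mean deviation of the 8 genes from their group mean, on the log2 scale of library-scaled counts, was 0.10, -0.20 and 0.10 in Ctrl and -0.14, 0.06 and 0.08 in LIP, the LIP 1 value with *Gbp3* at -1.07. The genes outside the set whose deviations were most like that mean, among 3383 with a mean of 10 FPKM or more, were *Gtpbp1*, *Wdr1* and *Alkbh5* (Pearson's r = 0.992, 0.990 and 0.988 over 6 libraries, which share depth and length effects). They were picked as the highest of 3383 values, each over only 6 libraries, so values this high come partly from the search itself.

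No other tested member of the families was called higher, on any of the 3 scales. Of 6 other guanylate-binding protein genes 2 were tested, and *Gbp4* fell while *Gbp8* did not pass (-0.65, adjusted p = 0.203), although on the neutrophil scale it was lower too (-2.55, adjusted p = 0.000632). *Gbp4*, which lies next to *Gbp9* on chromosome 5, was at 4.38, 2.58 and 3.24 FPKM in Ctrl and 0.942, 1.13 and 1.08 FPKM in LIP, with no overlap. Its log2 fold change was -1.38 (SE 0.244, edgeR adjusted p = 0.000854). Of the other IRG genes 11 were counted and 6 were tested, with 0 higher, 2 lower and a median of -0.01, beside 26.5% higher and 27.2% lower among all genes. On the neutrophil scale all 6 were lower, with a median of -1.87, beside 88.8% of all genes. Those lower with TMM were *Tgtp1* and *Tgtp2*, effector IRGs near *Ifi47* and close copies of each other, so that their single values are uncertain. *Tgtp1* was at 9.21, 9.49 and 9.39 FPKM in Ctrl and 2.30, 1.97 and 2.31 FPKM in LIP, a log2 fold change of -1.78 (SE 0.201, edgeR adjusted p = 3.66e-05). *Tgtp2* had a log2 fold change of -1.45 (SE 0.195, adjusted p = 0.000132). These 3 genes were lower under library totals and the neutrophil scale too. Of the larger interferon-inducible GTPases of the Gvin and Mx kinds, 3 of 4 were tested and 0 passed in either direction, with a median of -0.06. With library totals 1 was lower, and on the neutrophil scale all 3 were, with a median of -1.93.

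**Figure D4:**
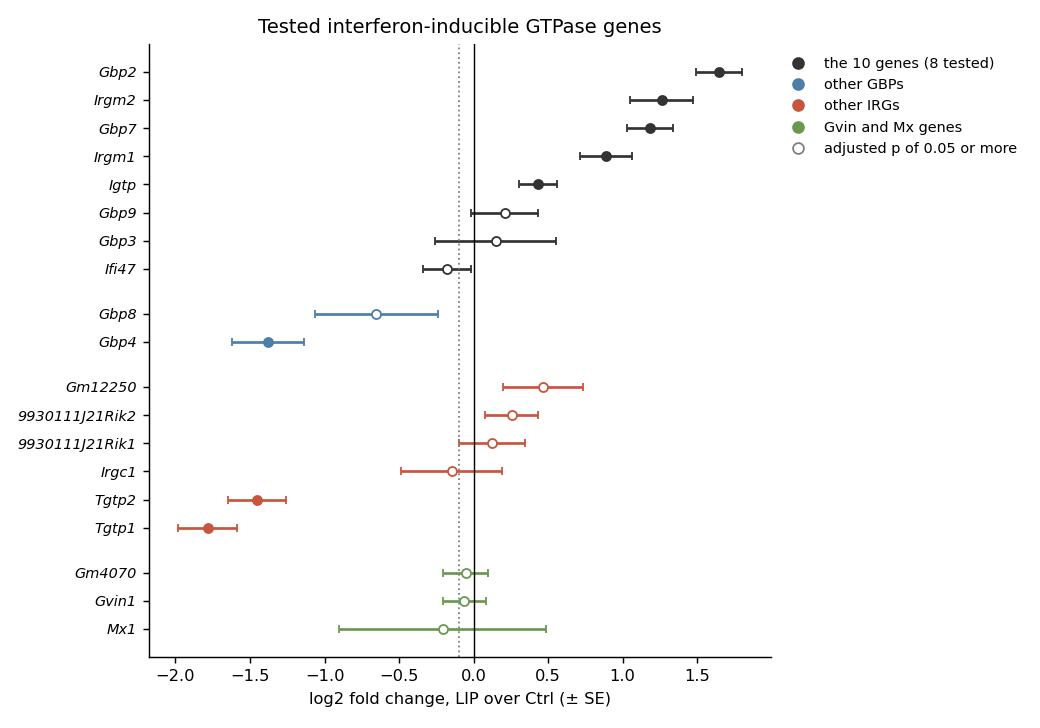
Log2 fold change of LIP over Ctrl on the TMM scale with its SE (horizontal axis) for all tested genes of the GTPase families, filled where the adjusted p was under 0.05, with a dotted line at the median of all genes (-0.09). On this scale the 5 genes that were higher are among the 10 listed here, although all lie below 0 on the neutrophil scale, and those that were lower are *Gbp4* (-1.38), *Tgtp2* (-1.45) and *Tgtp1* (-1.78).

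Of 15 interferon receptor, JAK-STAT and Irf genes tested, 8 were higher and 3 lower on the TMM scale, 4 and 3 with library totals, and 0 and 15 on the neutrophil scale, where the list's median of 0.46 became -1.41. The shares of all genes on these scales are those given above, 26.5% higher and 27.2% lower with TMM. *Irf1*, a factor that binds GAAA-NN-GAAA sites, was at 34.4, 36.5 and 38.7 FPKM in Ctrl and 59.4, 72.5 and 62.8 FPKM in LIP, a log2 fold change of 1.14 (SE 0.113, edgeR adjusted p = 1.54e-05). *Irf9*, the DNA-binding part of the IFN-I complex, had a log2 fold change of 1.11 (SE 0.111, adjusted p = 1.60e-05). These and the following genes that rose were below 0 on the neutrophil scale.
*Ifngr2*, the signalling chain of the interferon-gamma receptor, was at 19.7, 20.7 and 24.2 FPKM in Ctrl and 36.4, 37.5 and 37.2 FPKM in LIP, a log2 fold change of 1.09 (edgeR adjusted p = 3.08e-05). *Ifngr1*, the ligand-binding chain, overlapped between the groups, and its 0.33 (adjusted p = 0.0142) was 0.00 with library totals.
The largest falls were those of *Ciita*, the switch of MHC class II genes, at -2.22 (SE 0.176, edgeR adjusted p = 3.15e-06), and *Irf8*, a factor of monocytes, dendritic cells and B cells, at -1.15 (SE 0.109, adjusted p = 1.07e-05). B cells also express both, and the B cell markers fell by a median of 2.45 on the log2 scale in the same libraries. Their part in these values was not tested.

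Lists of genes that work beside the GTPases are read against the same shares of all genes, 26.5% higher and 27.2% lower with TMM. Of 9 inflammasome genes tested, 5 were higher and 0 lower (3 and 1 with library totals, 0 and 6 on the neutrophil scale), with a median of 0.68. *Il1b* and *Casp4*, the cytokine and the caspase that senses lipopolysaccharide, rose 3.73-fold (log2 SE 0.0751, edgeR adjusted p = 5.92e-08) and 3.48-fold (log2 SE 0.129, adjusted p = 1.69e-06). On the neutrophil scale they were at 0.05 and -0.06. Of 14 genes of autophagy-type conjugation and ubiquitin adaptors, which GTPase loading onto vacuoles draws on, 10 were higher and 0 lower (5 and 3 with library totals, 0 and 14 on the neutrophil scale), with a median of 0.55. *Atg3* and *Atg7*, enzymes of that conjugation, had log2 fold changes of 1.58 (SE 0.0896, edgeR adjusted p = 3.99e-07) and 1.32 (SE 0.125, adjusted p = 1.09e-05), and were below 0 on the neutrophil scale. Of 4 prenylation enzymes tested, 0 were higher and 2 lower (3 lower with library totals, 4 on the neutrophil scale), with a median of -0.99. *Fntb*, a farnesyltransferase subunit, was at -1.65 (SE 0.358, edgeR adjusted p = 0.00299) and *Rce1*, the protease that trims prenylated proteins, at -1.30 (SE 0.243, adjusted p = 0.00116).

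**Figure D5:**
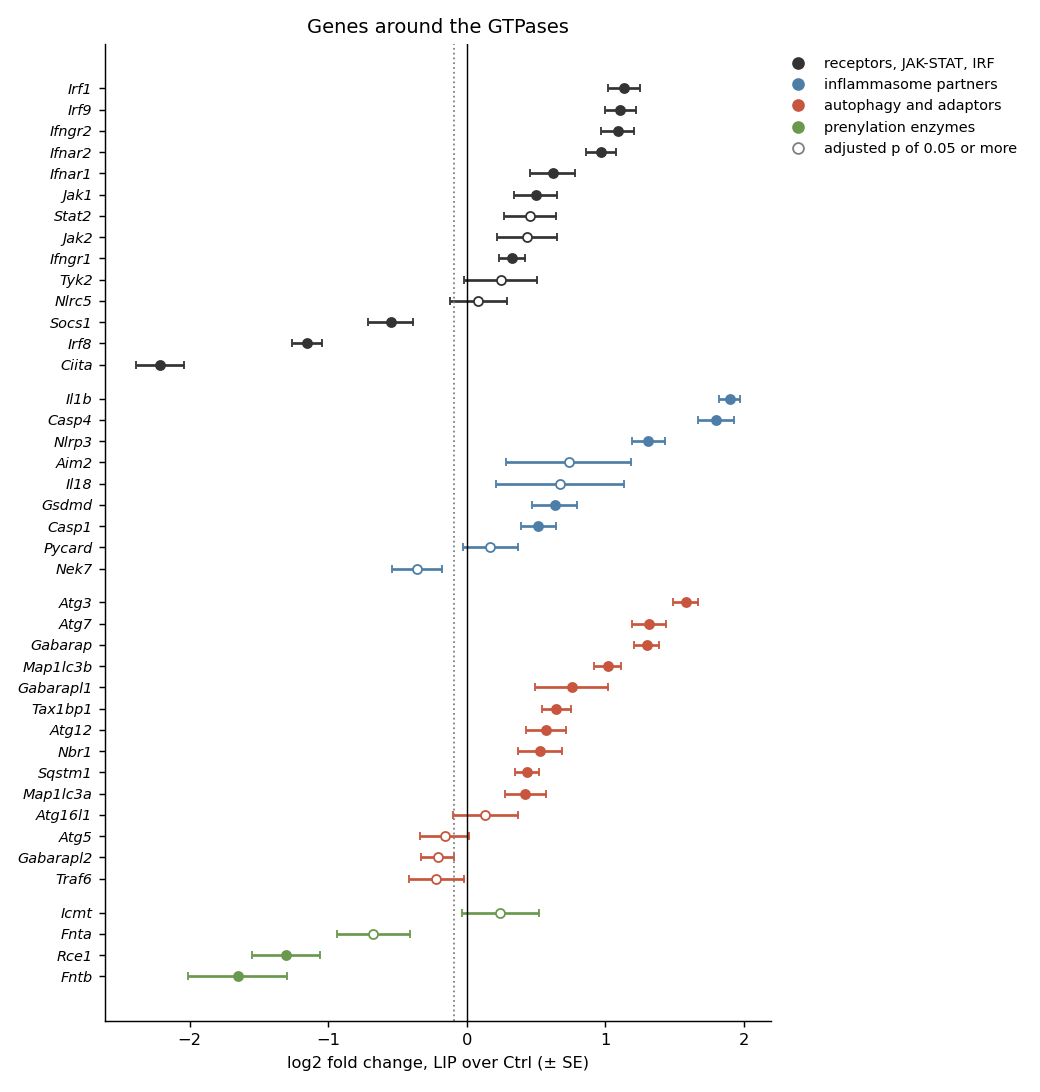
Log2 fold change of LIP over Ctrl on the TMM scale with its SE (horizontal axis) for tested genes of interferon signalling, inflammasomes, autophagy-type conjugation and prenylation, filled where the adjusted p was under 0.05, with a dotted line at the median of all genes (-0.09). Among signalling genes *Irf1* (1.14, but -0.72 on the neutrophil scale) lies highest and *Ciita* (-2.22) lowest, and the 2 prenylation genes with filled points lie below 0.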

How the data were processed

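Smart-seq2 libraries of sorted PB neutrophils, 3 Ctrl and 3 LIP, were analysed, grouped by their sample labels. For each library the authors deposited counts of reads on genes, without normalization, and FPKM values scaled to gene length and library total. The submitters' processing notes name FastQC, cutadapt 1.9 and GRCm38. The aligner, the counter, the annotation release and the use of strand are not given in the sources used here. In the list of 29097 genes, 50 names are repeated, and the highest mean FPKM decided between repeats.

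A gene entered the test when its FPKM averaged 1 or more. The test was edgeR 4.0.16's quasi-likelihood test (R 4.3.3) on the deposited counts with TMM factors, which were 1.10 to 1.14 in Ctrl and 0.887 to 0.902 in LIP. P-values were adjusted over all 10440 genes (Benjamini-Hochberg) and called under 0.05. The common biological coefficient of variation was 0.265, and chi-square per gene between libraries of a group was 42.5 to 85.2, far above sampling noise. Replicate numbers are shared through the labels only: same-numbered libraries hold different mice, and their deviations correlated at 0.0133 to 0.0521. P-values measure the spread between pools.

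Alternatives were DESeq2 1.42.0, library totals, median-of-ratios factors, scaling on neutrophil markers, leaving out haemoglobin genes, other filters, limma 3.58.1 on log2(FPKM + 1) and log2(FPKM + 0.1), a replicate block, and fits that each left out 1 library. TMM without B cell, T cell, erythroid and haemoglobin genes was added after seeing the data. The model was tested on simulated data. Motifs were matched as exact letters.

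The members and all gene lists were chosen with earlier results of these data known. Named genes are the 10 members, the 2 most changed called genes in each direction of each list, *Irf1*, *Ifngr1* and *Ifngr2*, and the 3 genes most like the members in their deviations. *Gbp8* is named beside *Gbp4* after its values were seen. The result of 1 gene of the interferon signalling list is not reported here by itself and is not plotted.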

Additional observations from a re-analysis of the deposited data

How the results depend on the processing

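On the TMM scale the calls for *Gbp2*, *Gbp7*, *Irgm1* and *Irgm2* held in 17 of 18 alternatives each. Scaling on neutrophil markers was the exception for all 4, and it shifted the median of all genes to -1.95. Under it the log2 fold changes were -0.22 for *Gbp2*, -0.67 for *Gbp7*, -0.98 for *Irgm1* and -0.59 for *Irgm2*. They were -1.42 for *Igtp*, -1.67 for *Gbp9*, -1.73 for *Gbp3* and -2.02 for *Ifi47*. All of these but that of *Gbp2* passed, so 0 members were higher and 7 lower. In all, 46 genes were higher and 9268 lower. With library totals *Gbp3* was at -0.18 and *Gbp9* at -0.12, and 1 member, *Ifi47*, was lower. Limma also called 1 member lower at each pseudocount, with *Gbp3* at -0.21 and -0.28 and *Gbp9* at -0.048 at both. A mean FPKM of at least 5 left fewer genes to test, with 1761 of them higher, and put *Gbp3* at -0.033. The cause of these shifts was not tested.

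With each library left out in turn, 4 to 5 members were higher and 0 lower, and 2419 to 2615 genes in all were higher and 2255 to 2770 lower. The log2 fold changes ran from 1.53 to 1.79 for *Gbp2*, 1.04 to 1.26 for *Gbp7*, 0.78 to 1.02 for *Irgm1*, 1.14 to 1.47 for *Irgm2*, 0.34 to 0.53 for *Igtp*, 0.02 to 0.48 for *Gbp9*, -0.10 to 0.52 for *Gbp3* and -0.27 to 0.026 (without Ctrl 2) for *Ifi47*. *Gbp3* was at -0.07 without Ctrl 2, -0.06 without LIP 2 and -0.10 without LIP 3. The replicate block changed no member's call, with 5 higher, 0 lower, and 2724 genes in all higher and 2822 lower, and same-numbered libraries were not paired. Values of *Iigp1* rest on few reads, and reads are not independent molecules.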
